A study of Mus musculus with 9 samples.

Results

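Tbr1, Bcl11b, Fezf2, Sox5, Neurod2, Neurod6, Bhlhe22, Nhlh1 and Nhlh2 are transcription factors of early cortical projection neurons, and their RNA was followed in mouse cortex that lacks Cnot3, with and without Trp53. These 9 genes were taken as a list by symbol and matched to the Ensembl IDs of a table of 57010 genes. All 9 had more than 10 reads in every embryo, which placed them among the 13680 genes that were tested. Bulk RNA-seq was performed on cerebral cortex dissected from 9 mouse embryos at embryonic day E12.5, 3 for each of 3 genotypes, and every library came from a single embryo. In the Cnot3 cKO (conditional knockout), Emx1-Cre removed floxed Cnot3 from radial glial cells (RGCs) of the dorsal telencephalon and from their progeny. In the Cnot3;Trp53 dcKO (double conditional knockout), the same Cre removed floxed Cnot3 and floxed Trp53, the gene of p53. Control (Ctrl) embryos carry the genotype WT in the labels, and their exact alleles are not given in the sources used here. Cells outside the Emx1 lineage, such as blood vessels, blood and meninges, are not targeted by this Cre. The first comparison asked which RNAs differ when Cnot3 is lost, and the second which still differ when p53 is lost too.

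CNOT3 is a subunit of the CCR4-NOT complex, which shortens the poly(A) tails of mRNAs and so starts their decay. Cortical projection neurons arise from RGCs, either directly or through intermediate progenitors, and switch on transcription factors in a set order as they leave the cell cycle. Some of these factors are basic helix-loop-helix (bHLH) proteins that drive neuronal differentiation, and others fix the layer and the target of the axon, with several of them repressing each other.

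Libraries held between 21193798 and 45073349 counts, and the deepest was dcKO 2. Cnot3 stood at 117.3, 106.9 and 98.2 CPM (counts scaled to the size of each library) in the Ctrl embryos, at 15.0, 17.3 and 14.6 CPM in the cKO embryos and at 7.33, 48.2 and 19.0 CPM in the dcKO embryos (replicates 1, 2 and 3 in this order here and below). Trp53 stood at 237, 254 and 215 CPM in Ctrl, at 167, 164 and 167 CPM in cKO, and at 15.1, 110 and 20.6 CPM in dcKO. Both targets therefore lay below every Ctrl embryo where the labels say so. Trp53 also lay below every Ctrl embryo in cKO, where it is not targeted. Embryo dcKO 2 retained more of both RNAs than the other dcKO embryos. That embryo also held reads of some subpallial genes that were at or near 0 elsewhere, such as Gsx2 with 96 reads against 0 in the other 8 embryos and Gad2 with 80 reads against 0 to 6. Other subpallial genes did not follow, as Gad1 and Isl1 had 0 reads in dcKO 2. Lhx6 was lower there than in any other embryo, at 0.599 CPM of the library total. In bulk tissue, fewer cells of a type and less RNA per cell cannot be told apart, and this holds for every value below.

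Each gene was tested with edgeR's quasi-likelihood test on all 9 embryos, with p-values adjusted by Benjamini-Hochberg over all 13680 genes. A gene was called at an adjusted p under 0.05 with a log2 fold change beyond 1 in either direction. In cKO against Ctrl, 0 of the 9 members were called higher and 0 lower, where 0.0146% of all genes were called higher and 0.0% lower. DESeq2 at the same thresholds also called 0 members, against 4.94% of genes higher and 3.87% lower. At an unadjusted edgeR p under 0.05, 1 member was higher (Neurod6, with 15.3% of all genes) and 1 lower (Fezf2, with 11.7%). In dcKO against Ctrl, edgeR and DESeq2 each called 0 members in either direction. The backgrounds there were 0.0% and 0.0% by edgeR and 4.66% higher and 3.79% lower by DESeq2. The unadjusted edgeR p was under 0.05 for 0 members higher (18.0% of genes) and for 1 lower (Nhlh1, with 11.2%). The median log2 fold change of the 9 members was -0.23 in cKO and -0.21 in dcKO, beside medians of 0.01 and 0.11 over all tested genes. These medians rested on few embryos, since leaving out 1 embryo in edgeR gave -0.34 to -0.16 in cKO and a range of -0.45 (without dcKO 2) to -0.018 (without Ctrl 1) in dcKO. A correction for GC content took them to -0.098 and 0.017. Both comparisons share the 3 Ctrl embryos.

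**Figure D1:**
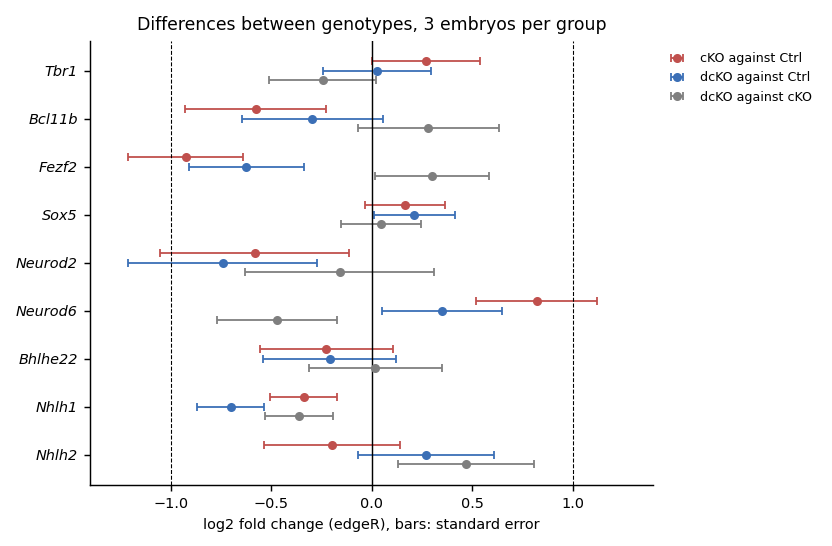
log2 fold change of each of the 9 genes (x axis, edgeR) in cKO against Ctrl (red), dcKO against Ctrl (blue) and dcKO against cKO (grey), with bars for the standard error and dashed lines at -1 and 1. No point lies beyond the dashed lines; Fezf2 in cKO is lowest at -0.93 and Neurod6 in cKO is highest at 0.82.

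To compare levels between genes, CPM was divided by exon length in kilobases (RPKM). In Ctrl cortex Neurod6 was the highest member at 52.9 ± 6.94 RPKM (SD, n = 3), above 91.9% of all tested genes. Nhlh1 (32.9 ± 2.69 RPKM), Fezf2 (31.5 ± 5.58 RPKM) and Tbr1 (27.0 ± 2.12 RPKM) followed, with ranges that overlapped from each to the next. Neurod2 lay below them at 13.3 ± 5.37 RPKM. Bcl11b (8.07 RPKM), Bhlhe22 (6.94 RPKM), Nhlh2 (6.02 RPKM) and Sox5 (5.81 RPKM) closed the order, and neighbours among these and Neurod2 overlapped over the 3 embryos. The lowest, Sox5, still lay above 48.1% of tested genes.

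Fezf2, Bcl11b, Tbr1 and Sox5 are the members best known for laminar identity. Fezf2 (ENSMUSG00000021743.7, chromosome 14, 12342094 to 12348189, minus strand, GRCm38) encodes a zinc finger protein that specifies subcerebral projection neurons and is also expressed in early cortical progenitors. It stood at 111, 99.0 and 77.6 CPM in Ctrl, at 48.5, 46.2 and 56.8 CPM in cKO and at 46.1, 46.2 and 94.5 CPM in dcKO. The cKO and Ctrl ranges did not overlap, while in dcKO embryos 1 and 2 sat at the cKO level and embryo 3 within the Ctrl range. In cKO the log2 fold change was -0.93 ± 0.29 (SE, n = 3 per group), with an edgeR adjusted p of 0.0818. DESeq2 gave -0.94 with an adjusted p of 0.024, which passed its p threshold (as did 7.07% of all genes in the lower direction, and 9.6% in the higher, with 0 members) but not the fold threshold. In dcKO the difference was -0.62 ± 0.29, with an edgeR adjusted p of 0.178. Without dcKO 3, Fezf2 was called in dcKO against Ctrl, at -1.06 with an edgeR adjusted p of 0.00101, in a fit that called 15.2% of all genes lower and 8.44% higher. Limma voom, which weights each library by its quality, called Fezf2 in dcKO at -1.01 and Neurod2 at -1.54 with all 9 embryos, beside 15.9% of all genes lower and 10.9% higher. In cKO, DESeq2 without Ctrl 3 called Fezf2 at -1.07, beside 3.35% of genes lower and 3.89% higher. Leaving out any of the other 5 Ctrl and cKO embryos took the DESeq2 adjusted p of Fezf2 in cKO above 0.05, to between 0.0686 and 0.179. Leaving out dcKO 1, 2 or 3, outside this comparison, gave DESeq2 adjusted p-values of 0.0104, 0.00619 and 2.65e-06 for Fezf2. In these fits, of 13731, 13893 and 13776 genes, 1503, 1665 and 2603 passed lower and 1737, 2064 and 2349 higher. Fezf2 stayed within the fold threshold in all of them.

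Bcl11b (ENSMUSG00000048251.16, chromosome 12, 107910403 to 108003602, minus strand), also known as Ctip2, acts downstream of Fezf2 in corticospinal neurons. Its levels were 79.7, 59.1 and 57.5 CPM in Ctrl, 51.2, 50.3 and 30.2 CPM in cKO and 31.1, 84.0 and 44.8 CPM in dcKO. All 3 cKO embryos were below all Ctrl embryos, and the dcKO embryos ran from near the lowest cKO value to above the highest Ctrl value. The log2 fold change was -0.58 ± 0.35 in cKO (edgeR adjusted p = 0.319) and -0.30 ± 0.35 in dcKO (edgeR adjusted p = 0.593), and the latter was -0.79 without dcKO 2 and -0.02 without dcKO 1. Without cKO 3 the cKO value was -0.38. Limma voom on all 9 embryos gave -0.86 in dcKO with an adjusted p of 0.0259, in a fit where 26.5% of all genes passed the p threshold higher and 26.2% lower.

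Tbr1 (ENSMUSG00000035033.16, chromosome 2, 61802930 to 61814114, plus strand), a T-box factor of preplate and corticothalamic neurons, represses Fezf2 and Bcl11b in later neurons. It stood at 160.7, 145.7 and 137.8 CPM in Ctrl, at 189.6, 214.1 and 131.8 CPM in cKO and at 116.2, 216.9 and 119.1 CPM in dcKO. Values above and below the Ctrl range occurred in both mutants, and the groups overlapped. The log2 fold change was 0.27 ± 0.27 in cKO (edgeR adjusted p = 0.545) and 0.03 ± 0.27 in dcKO (edgeR adjusted p = 0.956), and the dcKO value turned to -0.34 without dcKO 2. The cKO value was 0.12 without cKO 2 and 0.44 without cKO 3.

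Sox5 (ENSMUSG00000041540.17, chromosome 6, 143828425 to 144781977, minus strand) encodes an SRY-box factor that keeps subplate and corticothalamic neurons from taking a subcerebral fate. Ctrl embryos held 81.4, 82.3 and 86.7 CPM, the tightest spread of any member in Ctrl, with a coefficient of variation of 3.43%. Mutant values were 107.5, 101.0 and 72.7 CPM in cKO and 88.3, 119.1 and 82.6 CPM in dcKO. The mutants were more spread out than Ctrl and overlapped it, with a log2 fold change of 0.17 ± 0.20 in cKO (edgeR adjusted p = 0.623) and 0.21 ± 0.20 in dcKO (edgeR adjusted p = 0.497). The cKO value was 0.058 without cKO 1 and 0.31 without cKO 3, and the dcKO value 0.030 without dcKO 2. An annotated antisense gene, Sox5os1, shares 1330 exon bases with Sox5 and had 0 reads in every embryo, and the strand setting of the counting is not given in the sources used here.

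**Figure D2:**
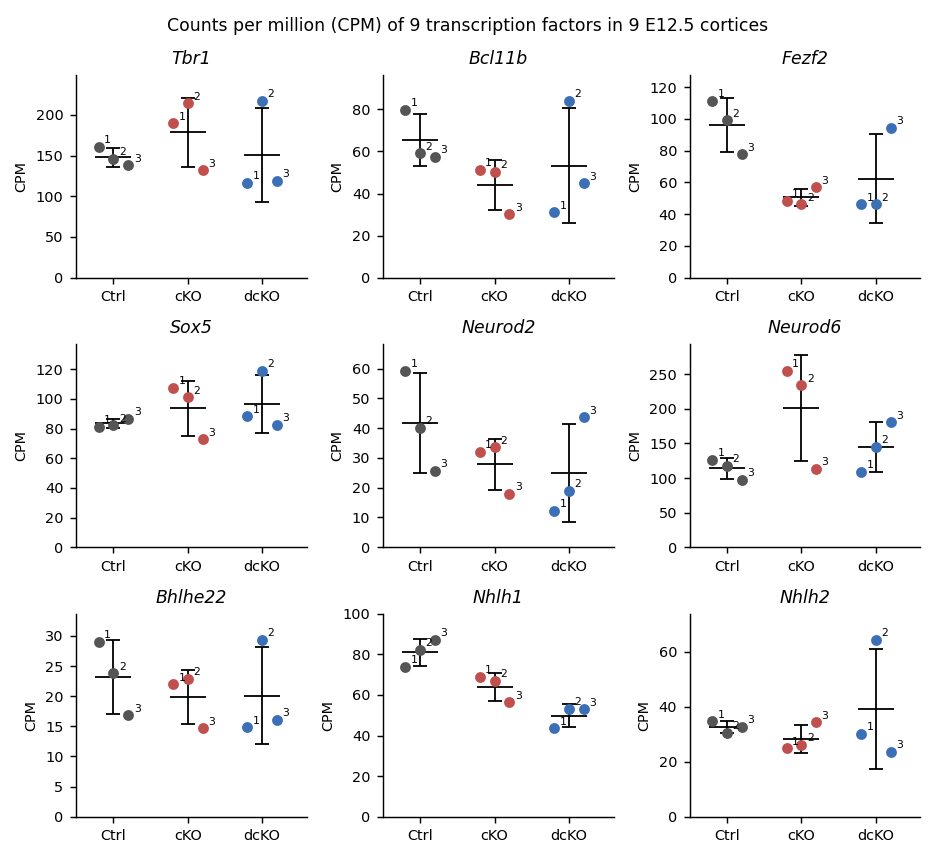
CPM (y axis, from 0) of each gene in the 3 Ctrl (grey), 3 cKO (red) and 3 dcKO (blue) embryos. Points are embryos numbered by replicate, and black bars are the mean and SD. Fezf2, Bcl11b and Nhlh1 separate cKO from Ctrl, Nhlh1 also separates dcKO from both, and for Neurod2 and Fezf2 the embryo dcKO 3 sits within the Ctrl range.

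Among the bHLH factors, Neurod2 and Neurod6 are close relatives that are switched on in newborn projection neurons and act redundantly in axon formation and differentiation. Neurod6 (ENSMUSG00000037984.10, chromosome 6, 55677822 to 55681263, minus strand), also known as Nex, is the gene whose promoter drives Nex-Cre in postmitotic cortical neurons. It stood at 126, 118 and 97.3 CPM in Ctrl, at 255, 234 and 113 CPM in cKO and at 109, 145 and 181 CPM in dcKO. Embryos cKO 1 and cKO 2 lay far above all Ctrl embryos and cKO 3 within their range. The log2 fold change in cKO was 0.82 ± 0.30, with an edgeR adjusted p of 0.118 and a DESeq2 adjusted p of 0.0717. Without cKO 3 it was 1.09, which DESeq2 called (adjusted p = 0.00792, in a fit that called 3.36% of all genes higher and 1.84% lower) and edgeR did not (adjusted p = 0.156). In dcKO it was 0.35 ± 0.30 (edgeR adjusted p = 0.452), with dcKO 1 within the Ctrl range and dcKO 2 and 3 above it, and leaving out dcKO 3 took it to 0.16.

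Neurod2 (ENSMUSG00000038255.7, chromosome 11, 98325415 to 98329648, minus strand) stood at 59.3, 40.2 and 25.7 CPM in Ctrl, at 32.0, 33.6 and 18.0 CPM in cKO and at 12.3, 19.0 and 43.6 CPM in dcKO. It varied more between Ctrl embryos than any other member, with a coefficient of variation of 40.4%. The groups overlapped, and the dcKO embryos held both the lowest value of all 9 embryos and the second highest. The log2 fold change was -0.58 ± 0.47 in cKO (edgeR adjusted p = 0.454) and -0.74 ± 0.47 in dcKO (edgeR adjusted p = 0.314). Leaving out Ctrl 1 took the cKO value to -0.24. Without dcKO 3, Neurod2 was called in dcKO against Ctrl, at -1.41 with an edgeR adjusted p of 0.0115. DESeq2 without dcKO 3 also called Neurod2 and Fezf2, at -1.43 and -1.07, beside 15.8% of all genes lower and 8.17% higher. Other embryos moved the edgeR dcKO value of Neurod2 the other way, to -0.40 without Ctrl 1 and -0.41 without dcKO 1.

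The pair was set side by side after its values were seen, so the following is a description without a test. The log2 difference of Neurod6 minus Neurod2 (CPM of each) was 1.09, 1.55 and 1.92 in Ctrl, 2.99, 2.80 and 2.66 in cKO and 3.14, 2.93 and 2.05 in dcKO. All 6 mutant embryos lay above all Ctrl embryos, with dcKO 3 nearest to them. The share of all gene pairs with this order was not computed. For Tbr1 minus Fezf2 and Sox5 minus Fezf2, every mutant embryo but dcKO 3 (0.333 and -0.194) lay above all Ctrl embryos. Bcl11b minus Fezf2 overlapped Ctrl in both mutants. Neurod6 and Neurod2 each have 2 exons and 1 coding exon, exon 2. The stretch below is the longest run of codons in which Neurod2 and Neurod6 encode the same residues, and it is shown because the proteins cannot be told apart there while the RNAs can. Capitals mark G or C at codon position 3; the GENCODE M21 transcripts on GRCm38 gave the bases, at chr11:98327800-98327916 for Neurod2 and chr6:55679198-55679314 for Neurod6, both on the minus strand.
Neurod2: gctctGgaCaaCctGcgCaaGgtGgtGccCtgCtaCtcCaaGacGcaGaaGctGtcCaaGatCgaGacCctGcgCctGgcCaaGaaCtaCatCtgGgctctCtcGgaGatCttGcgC
Neurod6: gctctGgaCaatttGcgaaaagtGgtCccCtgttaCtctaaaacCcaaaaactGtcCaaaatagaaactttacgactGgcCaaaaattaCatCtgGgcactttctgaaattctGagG

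Over these 39 codons the encoded residues are identical and 26 codons differ. Position 3 is G or C in 37 codons of Neurod2 (94.9%) and in 17 of Neurod6 (43.6%). Of the 28 bases that differ, 24 are at position 3. Across the full coding sequences of the pair the longest exact run of shared bases is 11, far shorter than a read.

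Nhlh1 (ENSMUSG00000051251.4, chromosome 1, 172052292 to 172057573, minus strand) and Nhlh2 encode small bHLH proteins that are expressed in neurons just after their last division. Nhlh1 stood at 73.9, 82.2 and 87.0 CPM in Ctrl, at 69.0, 67.0 and 56.3 CPM in cKO and at 43.6, 53.1 and 52.9 CPM in dcKO. All cKO embryos lay below all Ctrl embryos, and all dcKO embryos lay below all cKO embryos. In cKO the log2 fold change was -0.34 ± 0.17, with an edgeR adjusted p of 0.22. In dcKO it was -0.70 ± 0.17, with an edgeR adjusted p of 0.0511 and a DESeq2 adjusted p of 0.00184, which passed DESeq2's p threshold (as did 7.4% of genes in the lower direction, and 10.3% in the higher, with 0 members) but not the fold threshold. Leaving out any single embryo kept the dcKO value between -0.77 and -0.61 in edgeR, and without dcKO 3 its edgeR adjusted p was 0.00322, where 25.3% of genes passed higher and 23.6% lower. A correction for GC content took the dcKO value to -0.225 (edgeR adjusted p = 0.524). With the replicate number as a block, the edgeR adjusted p was 0.136. Nhlh1 was the only member with all 6 mutant embryos below every Ctrl embryo, an order that 8.98% of all tested genes shared, and 0 members had all 6 above, as 13.0% of genes did.

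Nhlh2 (ENSMUSG00000048540.9, chromosome 3, 102010076 to 102015492, plus strand) was lower along with Nhlh1 in some mutant embryos and not in others. Its levels were 34.6, 30.5 and 32.6 CPM in Ctrl, 24.8, 26.1 and 34.3 CPM in cKO and 30.1, 64.2 and 23.6 CPM in dcKO. The dcKO group rested on embryo 2, which stood above all other embryos. The log2 fold change was -0.20 ± 0.34 in cKO (edgeR adjusted p = 0.737) and 0.27 ± 0.34 in dcKO (edgeR adjusted p = 0.61), and the latter turned to -0.28 without dcKO 2. The cKO value was -0.11 without cKO 1 and -0.365 without cKO 3. The log2 difference of Nhlh2 minus Nhlh1 had a range of -1.43 to -1.09 over Ctrl, -1.47 to -0.72 over cKO and -1.16 to 0.27 over dcKO embryos. It stayed in or near the Ctrl range in cKO 1, cKO 2 and dcKO 3 (-1.47, -1.36 and -1.16). In cKO 3, dcKO 1 and dcKO 2 it lay above that range. The difference was not tested.

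The coding sequences of this pair differ less in base composition. The first 50 codons of their longest run with identical residues (55 codons) are shown for contrast with Neurod2 and Neurod6, marked in the same way, at chr1:172053914-172054063 on the minus strand for Nhlh1 and chr3:102012894-102013043 on the plus strand for Nhlh2 (GRCm38).
Nhlh1: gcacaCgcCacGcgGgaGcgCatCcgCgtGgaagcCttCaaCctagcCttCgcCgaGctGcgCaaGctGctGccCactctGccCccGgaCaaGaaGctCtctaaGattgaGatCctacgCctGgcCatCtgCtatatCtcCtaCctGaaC
Nhlh2: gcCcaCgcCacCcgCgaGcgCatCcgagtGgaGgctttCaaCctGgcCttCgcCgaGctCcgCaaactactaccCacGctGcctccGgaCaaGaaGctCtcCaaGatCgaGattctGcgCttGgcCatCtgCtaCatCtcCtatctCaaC

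Here 21 of 50 codons differ, and 42 codons end in G or C in each gene. The longest exact run that the full coding sequences share is 20 bases.

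Bhlhe22 (ENSMUSG00000025128.8, chromosome 3, 18054174 to 18057517, plus strand) encodes a bHLH repressor that takes part in area identity and axon targeting of projection neurons. It stood at 29.0, 23.8 and 16.8 CPM in Ctrl, at 22.0, 22.8 and 14.7 CPM in cKO and at 14.8, 29.3 and 16.1 CPM in dcKO. Embryos cKO 1 and cKO 2 lay within the Ctrl range, cKO 3, dcKO 1 and dcKO 3 below it and dcKO 2 just above it. The log2 fold change was -0.23 ± 0.33 in cKO (edgeR adjusted p = 0.692) and -0.21 ± 0.33 in dcKO (edgeR adjusted p = 0.695). Single embryos decided these values, which in edgeR ran from -0.41 without Ctrl 3 to -0.036 without Ctrl 1 in cKO, and between -0.59 without dcKO 2 and -0.018 without Ctrl 1 in dcKO.

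In all, 3 members (Bcl11b, Fezf2 and Nhlh1) had every cKO embryo below every Ctrl embryo and 0 had every one above, where 28.0% of all tested genes lay below and 29.2% above. With 3 embryos against 3, the exact two-sided permutation test cannot give a p under 0.1, which is its value for each of these 3 genes. In dcKO, Nhlh1 alone lay below Ctrl in every embryo, where 11.2% of genes did, and 0 members lay above (15.6% of genes). The number of members past the adjusted p threshold alone in cKO differed between fits. With Ctrl and cKO embryos alone, edgeR gave adjusted p-values of 0.000452 for Fezf2, 0.0183 for Neurod6, 0.0229 for Nhlh1 and 0.0337 for Bcl11b. All 4 stayed within the fold threshold, and in that fit 23.5% of all genes passed the adjusted p threshold in the higher and 23.7% in the lower direction. Limma voom on all 9 embryos passed these 4 genes too (adjusted p = 2.71e-05 for Fezf2, 0.00489 for Neurod6, 0.012 for Nhlh1 and 0.0237 for Bcl11b), beside 27.6% of genes higher and 27.3% lower. With a correction for GC content, edgeR passed Fezf2 (adjusted p = 0.0366, at a log2 fold change of -0.55), beside 8.02% of genes higher and 3.98% lower. Fezf2 did not pass in edgeR with the replicate number as a block (adjusted p = 0.143) or with that block and the GC correction together (adjusted p = 0.0761). It did pass in DESeq2 with the block (adjusted p = 0.0435, beside 5.89% of genes higher and 4.45% lower) and in edgeR with no filter on low counts (adjusted p = 0.0459, beside 1.59% higher and 2.08% lower).

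The comparison of dcKO with cKO asked whether loss of p53 on top of Cnot3 moved these RNAs. edgeR and DESeq2 called 0 of 9 members in either direction, with backgrounds of 0.0% higher and 0.0146% lower by edgeR and 0.0292% higher and 0.351% lower by DESeq2. On the adjusted p alone, DESeq2 passed 0.0292% of genes higher and 0.402% lower, and 0 members. 0 members had an unadjusted edgeR p under 0.05, against 2.05% of genes higher and 2.38% lower. The members' median log2 fold change was 0.02, beside 0.07 over all tested genes, and it had no stable sign, at -0.21 without dcKO 2, 0.17 without dcKO 1 (edgeR) and -0.34 with limma voom. Nhlh1 had every dcKO embryo below every cKO embryo, as 3.63% of genes did (0 members had every one above, against 2.62% of genes), with a log2 fold change of -0.36 ± 0.17 (edgeR adjusted p = 0.889). The other sizable differences were -0.47 ± 0.30 for Neurod6 and 0.47 ± 0.34 for Nhlh2, both with overlapping groups (edgeR adjusted p = 0.889 for each). Neurod6 was at -0.26 without cKO 1 and -0.79 without cKO 3, and Nhlh2 at -0.079 without dcKO 2. Without dcKO 3, DESeq2 put Nhlh2 at 0.735 with an adjusted p of 0.0437, in a fit where 17.1% of genes passed higher and 16.9% lower. With standard errors of 0.17 to 0.47, differences of this size between the mutants were not resolved by 3 embryos per group.

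Members differed in base composition, and so did the direction of all genes in the mutants. GC3, the share of G or C at codon position 3, was 84.1% in Neurod2, 83.7% in Bhlhe22 and in Nhlh2, 79.7% in Nhlh1, 76.7% in Bcl11b, 75.6% in Tbr1 and 72.5% in Fezf2. These 7 members fell into the highest of 5 equal GC3 bins, which ran from 69.5% to 96.0%. Sox5 (60.6%) sat at the median of tested genes (60.4%), and Neurod6 (52.2%) below it. Over the 5 bins from low to high GC3, the median log2 fold change of all tested genes with a value ran 0.25, 0.20, 0.06, -0.13 and -0.33 in cKO and 0.53, 0.28, 0.03, -0.21 and -0.38 in dcKO. A gene in the highest bin was thus typically lower in the mutants.

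**Figure D3:**
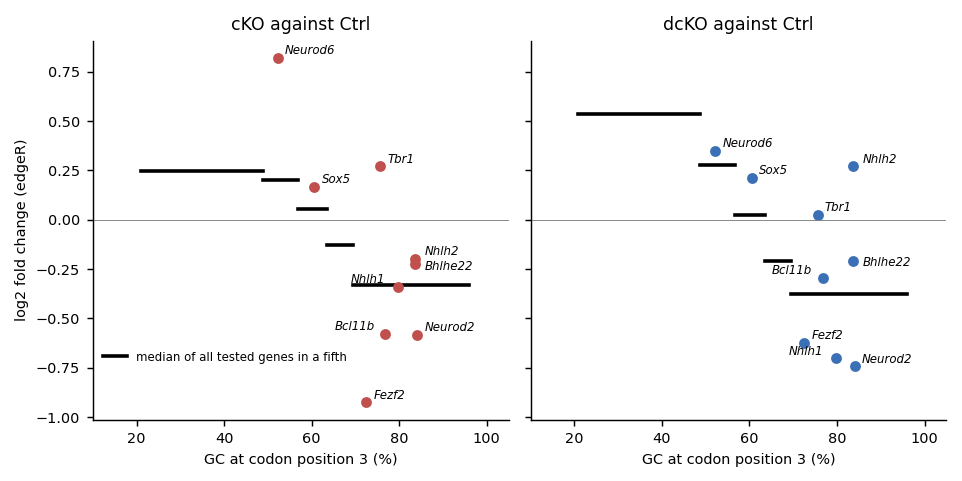
log2 fold change (y axis, edgeR) against GC at codon position 3 in percent (x axis) for the 9 genes (points) in cKO (left) and dcKO (right) against Ctrl. Black bars give the median of all tested genes in each of 5 equal GC3 bins, which steps down from 0.25 to -0.33 (left) and from 0.53 to -0.38 (right); Neurod6 and Tbr1 lie above their bin in both panels and Fezf2 and Neurod2 below it.

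Relative to the median of its own bin, Fezf2 differed by -0.59 in cKO and -0.25 in dcKO on the log2 scale. Neurod2 differed from its bin by -0.25 and -0.37, Nhlh1 by -0.01 and -0.33, and Bcl11b by -0.24 and 0.08. Tbr1 was above its bin by 0.60 in cKO and 0.40 in dcKO. Neurod6 was above its bin by 0.62 in cKO and 0.07 in dcKO, and Nhlh2 by 0.13 and 0.65. Sox5 (0.11 and 0.19) and Bhlhe22 (0.11 and 0.17) also lay above theirs. A loess correction of each embryo for transcript GC content took Neurod2 to 0.06 in cKO and 0.02 in dcKO, and Fezf2 to -0.55 and -0.12. It took Nhlh1 to -0.10 in cKO and -0.23 in dcKO, while Neurod6 kept 0.66 in cKO and dropped to 0.06 in dcKO. Bcl11b was at -0.56 and -0.24 after it, Tbr1 at 0.365 and 0.27, Nhlh2 at -0.18 and 0.33, Bhlhe22 at -0.135 and 0.021, and Sox5 at 0.031 and -0.073.

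The shift with GC3 was not even between embryos. The median log2 ratio to the Ctrl mean in the highest bin minus that in the lowest was 0.15, 0.11 and -0.26 in Ctrl, -0.59, -0.41 and -0.70 in cKO and -1.41, -1.74 and 0.18 in dcKO. dcKO 3 was the mutant embryo on the Ctrl side, and it is also the one in which Fezf2 sat within the Ctrl range. Neurod2 lay within the Ctrl range in dcKO 3 and also in cKO 1 and cKO 2, where that difference was -0.59 and -0.41. Ctrl 3, which had the lowest value in Ctrl, was also the lowest Ctrl embryo for 6 of the 9 members, Neurod2 and Fezf2 among them. The embryo codes in the labels share a number in 3 pairs of embryos, whose meaning is not stated. Within these pairs the log2 difference of Fezf2 was -1.27 for cKO 2 minus Ctrl 1, -0.80 for cKO 3 minus Ctrl 2 and 0.29 for dcKO 3 minus Ctrl 3. Nhlh1 gave -0.14, -0.55 and -0.72 in the same pairs, Neurod2 gave -0.82, -1.16 and 0.76, and Neurod6 gave 0.89, -0.05 and 0.89. Bcl11b gave -0.66, -0.97 and -0.36, and Bhlhe22 gave -0.34, -0.70 and -0.06. Tbr1 gave 0.41, -0.145 and -0.21, Sox5 gave 0.31, -0.18 and -0.07, and Nhlh2 gave -0.41, 0.17 and -0.465.

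**Figure D4:**
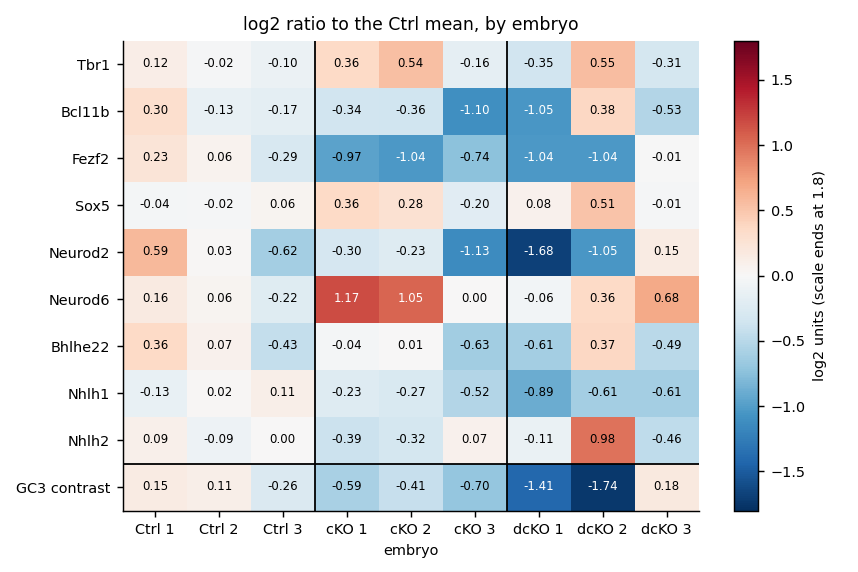
log2 ratio of CPM to the Ctrl mean for the 9 genes (rows) in the 9 embryos (columns); red is above and blue below the Ctrl mean. The bottom row is the median of the highest GC3 bin minus that of the lowest over all tested genes, from -1.74 in dcKO 2 to 0.18 in dcKO 3; Neurod2 is lowest at -1.68 in dcKO 1.

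Profiles over the 9 embryos grouped the members in a way that did not follow their families. By root mean square difference of the log2 ratios to the Ctrl mean, Tbr1 and Sox5 were each other's nearest member (0.21), as were Bcl11b and Bhlhe22 (0.29) and Fezf2 and Neurod2 (0.46). Fezf2 and Neurod6 were the farthest apart (1.20). Over all other tested genes, the profiles most like the mean of the 9 members over 9 embryos were those of Map4k4 (0.10), Tmppe (0.11), C530008M17Rik (0.12), Nek6 (0.13) and Mycl (0.13).

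Levels were also set against neurons as a whole, using the mean log2 level of 15 pan-neuronal markers such as Tubb3 and Dcx. Summed over all 15, these markers made up 1533 to 1925 CPM in Ctrl, 1188 to 1569 CPM in cKO and 1018 to 1635 CPM in dcKO, with 0 of the 15 called by edgeR. Of the 15, 6 had a positive log2 fold change in cKO (median -0.165) and 7 in dcKO (median -0.13). DESeq2 called 1 of them lower in cKO (Elavl3, at -1.06) and 2 lower in dcKO (Elavl3 at -1.08 and Mapt at -1.24). The mean itself lay below the Ctrl average in every mutant embryo, by log2 differences of -0.19, -0.13 and -0.65 in cKO and -0.97, -0.24 and -0.22 in dcKO, with Ctrl embryos between -0.18 and 0.185. A gene at an even CPM would therefore stand higher on this scale in the mutants, most of all in cKO 3 and dcKO 1. Relative to this mean and to Ctrl, the log2 value of Neurod6 was 1.37, 1.18 and 0.66 in cKO and 0.92, 0.60 and 0.89 in dcKO, where Ctrl embryos lay between -0.03 and 0.06. All 6 mutant embryos lay above all Ctrl embryos for Neurod6 on this scale, as they did for 17.5% of all tested genes, and in cKO 3 and dcKO 1 its CPM was within the Ctrl range. No other member had this order, and 0 members had the opposite one (3.07% of genes). Tbr1 was at 0.55, 0.66 and 0.49 in cKO and at 0.625, 0.79 and -0.093 in dcKO, although its CPM in cKO 3 and dcKO 1 was below every Ctrl embryo. Sox5 was at 0.56, 0.40 and 0.455 in cKO and at 1.05, 0.75 and 0.20 in dcKO, with the last within its Ctrl range. The Nhlh1 values, -0.04, -0.15 and 0.13 in cKO and 0.08, -0.37 and -0.39 in dcKO, did not leave the Ctrl range of -0.31 to 0.29 except in dcKO 2 and 3. Fezf2 stayed below the Ctrl range (-0.11 to 0.06) in cKO 1, cKO 2 and dcKO 2 only, at -0.77, -0.91 and -0.80.

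Other genes of the same programme were counted in lists that had been drawn up by role. Of 28 other projection neuron transcription factors, 27 were tested, edgeR called 0 and DESeq2 called 1 higher and 4 lower in cKO and 1 higher and 3 lower in dcKO. Their median log2 fold change was -0.52 in cKO and -0.19 in dcKO. Nfix, a nuclear factor I protein of the developing cortex, stood at 350, 266 and 174 CPM in Ctrl and at 62.1, 51.2 and 59.9 CPM in cKO, and fell by DESeq2 in both mutants (log2 fold changes of -2.20 and -1.65, with adjusted p-values of 2.13e-07 and 0.000228). By edgeR its adjusted p-values were 0.0509 and 0.0502. Cux1 (-1.05) and Tshz3 (-1.16) fell and Mef2c (1.05) rose by DESeq2 in cKO. Scrt2, a zinc finger repressor of newborn neurons, fell in both mutants (-1.26 and -1.41), and the bHLH gene Neurod4 rose in dcKO (1.49).

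Upstream of the members, 12 regulators that act in progenitors were tested. DESeq2 called 0 higher and 3 lower in cKO, Lhx2 (-1.20), Hes5 (-1.84) and Emx1 (-1.86), and 0 in dcKO, and edgeR called 0 in each. Emx1, whose locus drives the Cre, stood at 120, 69.4 and 43.8 CPM in Ctrl, at 20.5, 20.4 and 23.7 CPM in cKO and at 7.94, 17.7 and 80.9 CPM in dcKO, so it overlapped Ctrl in dcKO 3 alone. Of 7 partners and inhibitors of bHLH proteins, Id1, which blocks DNA binding of bHLH dimers, rose in cKO by DESeq2 (1.56, adjusted p = 0.00248). Tcf3, which encodes the E-protein partner E2A, fell there (-1.67, adjusted p = 0.0214). Neither was called by edgeR (adjusted p = 0.055 and 0.107) and 0 of the 7 were called in dcKO by DESeq2. Of 16 effector genes of early cortical neurons, DESeq2 called 2 higher and 2 lower in cKO and 1 higher and 2 lower in dcKO, and edgeR called 0. Ldb2, a LIM domain cofactor of subcerebral neurons, rose in both mutants (1.34 and 1.32), Sema3c, a secreted guidance cue, rose in cKO (1.14). Cntn2, an axonal adhesion molecule, fell in both mutants (-1.001 and -1.16), Auts2 fell in cKO (-1.20) and Nxph4, a neurexophilin, fell in dcKO (-1.61).

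Markers of other cells in the dissected tissue were counted in the same way, and edgeR called 0 genes of any of these lists. Of 7 hem and choroid plexus markers, 4 were tested and DESeq2 called 3 higher in each mutant, Lmx1a (2.03 in cKO and 1.68 in dcKO), Wnt2b (2.67 and 2.32) and Rspo2 (3.25 and 3.19), the last at 7.46, 12.3 and 0.613 CPM in Ctrl and at 24.4, 74.9 and 96.5 CPM in cKO. Summed over the 7, they made up 68.6 to 96.4 CPM in Ctrl, 116.05 to 367.23 CPM in cKO and 123.84 to 391.62 CPM in dcKO. Ttr, the defining gene of choroid plexus epithelium, had 0 reads in all Ctrl embryos and 134 to 2050 reads in the mutants. In dcKO, all 5 endothelial markers had a negative log2 fold change (median -0.80), and DESeq2 called Cdh5 (-1.14). All 7 blood markers were negative there too (median -1.01), with DESeq2 calls for Hba-x (-1.49), Hba-a2 (-1.02), Hba-a1 (-1.09) and Hbb-bt (-1.08). Hba-a1 and Hba-a2 are near-identical copies between which reads may be split. The 6 meningeal and fibroblast markers summed to 732 to 817 CPM in Ctrl, 475 to 751 CPM in cKO and 298 to 537 CPM in dcKO, with 3 called lower by DESeq2 in dcKO, Col3a1 (-1.07), Col1a2 (-1.34) and Col1a1 (-1.90). The 5 microglia markers summed to 33.4 to 41.4 CPM in Ctrl, 40.2 to 88.5 CPM in cKO and 12.9 to 31.9 CPM in dcKO, with Fcrls called higher by DESeq2 in cKO (1.23), and the 6 thalamic and diencephalic markers to 47.1 to 53.9 CPM in Ctrl and 55.8 to 89.0 CPM in the mutants. Only 2 of these 6 had enough reads to be tested, 1 with a positive and 1 with a negative log2 fold change in each mutant. Summed levels of the 10 radial glia markers were 2931 to 3261 CPM in Ctrl, 3225 to 3880 CPM in cKO and 3056 to 3589 CPM in dcKO, with Hes5 the 1 gene called by DESeq2 (lower in cKO). In cKO, 6 of the 10 had a negative log2 fold change (median -0.23), and the median was 0.01 in dcKO. The 8 intermediate progenitor markers summed to 533 to 642 CPM in Ctrl, 501 to 632 CPM in cKO and 467 to 790 CPM in dcKO. Of these 8, 6 were negative in cKO (median -0.33) and 3 in dcKO (median 0.06). The 12 subpallial and interneuron markers summed to 9.33 to 17.1 CPM over all embryos, with the highest sum in dcKO 2. Cajal-Retzius cells, which also express Tbr1, were followed by 8 markers that summed to 168 to 199 CPM in Ctrl, 213 to 291 CPM in cKO and 133 to 198 CPM in dcKO. All 8 had a positive log2 fold change in cKO (median 0.49) and 6 of the 8 in dcKO (median 0.24), and DESeq2 called 0. The part of these cells in the values of the 9 members was not tested.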

How the data were processed

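Cortices of 9 single E12.5 embryos were dissected and libraries were made with a stranded, poly(A)-selecting mRNA kit and sequenced as paired ends. Per the labels and the study's methods, the authors checked reads with FastQC, trimmed adapters with Cutadapt, aligned reads to mm39 with STAR and assigned them to genes with featureCounts; versions and the strand setting are not given in the sources used here. The deposited table holds raw counts per gene, with no normalization, for 57010 Ensembl IDs, of which 52029 matched the GENCODE M21 annotation (GRCm38). Names, coordinates, exon lengths and GC content come from that annotation, so coordinates are not those of the build the reads were aligned to.

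A gene was tested if each of the 9 embryos had over 10 reads of it (13680 genes). Counts were scaled by TMM and fitted with edgeR 4.0.16 (quasi-likelihood, no covariate, all 9 embryos) in R 4.3.3; log2 CPM used a prior count of 0.5, and CPM and log2 fold changes are on the TMM scale. DESeq2 1.42.0, which the authors used, and voom with sample quality weights in limma 3.58.1 were alternatives, with other scalings, filters, sample sets, GC corrections and a replicate block. P-values of all tools were adjusted by Benjamini-Hochberg. The scripts were tested on simulated counts with known changes. RPKM divides CPM by the exon length of a gene, and sums over lists use CPM of the library total without TMM. GC3 was available for 88.3% of tested genes.

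All 9 members were named by symbol. List genes were named where edgeR or DESeq2 called them in either mutant against Ctrl, up to 6 per list by the smaller DESeq2 adjusted p, and the 5 nearest profiles by root mean square difference. A few further marker genes (Ttr, Gsx2, Gad2, Gad1, Isl1, Lhx6) and the Neurod6 and Neurod2 pair were chosen after their values were seen. The members and the lists were chosen with earlier results of these data known, so lists are given by counts and medians without a test.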

Additional observations from a re-analysis of the deposited data

How the results depend on the processing

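Of 810 values for single members under other settings, 748 kept their direction and their side of the threshold, 54 changed sign (none of them a called value) and 8 became calls. Called members in dcKO against Ctrl went from 0 to 2 (Fezf2 at -1.01 and Neurod2 at -1.54) in limma voom with quality weights, which weights each library by its fit and called 15.9% of all genes lower. Leaving out each embryo in turn, by edgeR or DESeq2, gave 0 to 2 called members in dcKO against Ctrl, with 2 only without dcKO 3, and 0 to 1 in cKO against Ctrl, with 1 in DESeq2 without Ctrl 3 (Fezf2 at -1.07) and 1 in DESeq2 without cKO 3 (Neurod6). The cause was not tested. In dcKO against Ctrl, Tbr1, at 0.03 in the report, turned to -0.26 with voom, -0.0656 with filterByExpr, -0.0805 with no filter, -0.0297 and -0.0102 with only the 2 genotypes compared in edgeR and DESeq2, and Nhlh2 to -0.0083 with voom. The correction for GC content turned Neurod2 to 0.0608 in cKO and 0.0172 in dcKO, and in dcKO Sox5 to -0.0734 and Bhlhe22 to 0.0212. In dcKO against cKO, Sox5 turned to -0.0549 with upper-quartile factors, -0.0806 with voom and -0.10 with the GC correction, Bhlhe22 to -0.0929, -0.32, -0.013 and -0.0295 with upper-quartile factors, voom, filterByExpr and no filter, and with voom Bcl11b to -0.34 and Fezf2 to -0.0532. Over all alternatives other than leaving out an embryo, the median of the 9 members ran from -0.288 to -0.0978 in cKO against Ctrl, -0.549 to 0.0172 in dcKO against Ctrl and -0.341 to 0.0358 in dcKO against cKO. Upper-quartile factors moved the median of all genes in cKO against Ctrl from 0.01 to 0.12. Over fits that leave out each embryo, values in dcKO against Ctrl ran from -0.37 to 0.19 for Tbr1, -0.32 to 0.53 for Nhlh2 and -0.00393 to 0.31 for Sox5. In dcKO against cKO they ran from -0.16 to 0.16 for Sox5, -0.39 to 0.20 for Bhlhe22, -0.83 to 0.17 for Neurod2, -0.24 to 0.56 for Bcl11b, -0.11 to 0.74 for Nhlh2 and -0.13 to 0.48 for Fezf2. With 1 embryo left out, a group of 2 is assumed to vary like the others. Embryos that share a replicate number did not deviate together on average. The correlation of deviations averaged -0.17 over embryos that share a number and 0.08 over other pairs. Deviations were taken from each group's mean, which ties these averages to each other. Ctrl 3 and dcKO 3, at -0.537, also share a code number. What the replicate numbers mark was not tested. With the replicate number as a block, called members stayed at 0 in all 3 comparisons, Tbr1 in dcKO turned to -0.0313 (-0.0595 in DESeq2 with the block), and Bhlhe22 in dcKO against cKO to -0.00918 in DESeq2 with the block. With the GC correction and the replicate block together, Neurod2 was 0.046 in cKO and 0.0393 in dcKO, and Sox5 was -0.0745 in dcKO against Ctrl and -0.10 in dcKO against cKO. Over all genes, edgeR called 2 in cKO against Ctrl and 0 in dcKO against Ctrl, and DESeq2 called 676 higher and 530 lower in the first and 638 and 519 in the second. DESeq2 with the block, with 2 genotypes or with an embryo left out was added after the data were seen. Each group held 3 embryos, and members had 389 to 8493 reads per embryo. What limited the number of calls was not tested.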
